A study of Mus musculus with 9 samples.

Results

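The Myc and Mycn loci were examined in 5 lists of ChIP-seq peaks. A peak was taken as belonging to a locus when at least 1 bp of it fell in the mm9 gene body, in the 200 kb upstream, or in the 2 Mb downstream of Myc (200 kb downstream of Mycn). This gave 157 of the 190262 peaks of the series, 137 of them around Myc and 20 around Mycn. The Myc window spans 2.20 Mb of chromosome 15 (chr15:61616946-63821929, gene on the plus strand at 61816946-61821929), and the Mycn window 0.406 Mb of chromosome 12 (chr12:12742902-13148720, gene on the minus strand at 12942902-12948720).

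CTCF was profiled in 2 B-lineage populations, pre-B cells and pro-B cells grown for 7 days with IL7 (IL7 pro-B cells), and the cohesin subunit Rad21 in 3 populations, pre-B cells, CD4-CD8- (DN) thymocytes and CD4+CD8+ (DP) thymocytes. All cells came from C57BL/6 mice without a working recombinase: RAG1-/- for pro-B cells and DN thymocytes, RAG-/- with a rearranged IgM transgene for pre-B cells, and Rag1-/- with a rearranged TCRb transgene for DP thymocytes. Bone marrow donors were 6 to 14 weeks old and thymus donors 4 to 8 weeks old. The transgenes carry the cells past a block that they cannot pass with their own receptor genes, so these pre-B and DP cells are models with 1 fixed receptor chain. Each antibody and cell type has 1 library, the pre-B libraries share 1 input, and a list of peaks gives no means of checking cell identity by marker genes. No test between conditions was therefore possible, and the main shares carry an exact 95% Clopper-Pearson interval, which covers counting error only. There were 42250 pre-B and 71080 IL7 pro-B peaks for CTCF, and 30488 pre-B, 9701 DN and 36743 DP peaks for Rad21. Read depth is unknown and each list ends at its own lowest score, so a site without a peak is 1 that was not called, and the score was used only as the percentile of a peak within its own list (the share of that list's peaks with a lower score). CTCF in thymocytes was not analysed here, and "B-lineage CTCF" below means a peak in either CTCF list.

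Myc and Mycn encode basic helix-loop-helix leucine zipper transcription factors that bind DNA with the partner Max and drive growth and proliferation. Both are used during lymphocyte development, Myc in the expansion of thymocytes after a successful TCRβ rearrangement. Myc lies at the edge of a gene desert that begins with the long non-coding RNA gene Pvt1 and holds tissue-specific enhancers far downstream, among them a Notch-dependent enhancer used in developing T cells and, farther out, a cluster of enhancers used in blood stem and progenitor cells. CTCF binds DNA through zinc fingers and halts the cohesin ring as it extrudes a loop, so CTCF sites usually carry cohesin, while cohesin is also found at active promoters and enhancers without CTCF.

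The sequences that carry the CTCF sites are shown first, since the orientation of the motif is the property by which CTCF halts cohesin from 1 side. Capitals mark the best match to a 12-base CTCF consensus within the pre-B CTCF peak. To each side 9 bases are shown, 5′ to 3′ on the strand of the match, from mm9. This consensus is the motif that the study detected de novo, and the study searched a larger set of CTCF motifs. The other motifs of that set were not searched here. A peak without a match is therefore not shown to lack a CTCF motif. The first 8 lines hold at most 2 mismatches. The sites in Gsdmc2 and Gsdmc3, shown because they lie in copies of the same gene, matched only with 3 mismatches, a limit that 50% of neighbouring sequences of the same length also met.
Myc, 1.95 kb upstream (chr15:61814977-61815006, minus): agtaagtgtGCCCTCTACTGGccacagaga
Myc, 817.59 kb downstream (chr15:62634520-62634549, minus): gactgcttgGCCACTTGGTGGaggtgttgg
Myc, 827.90 kb downstream (chr15:62644832-62644861, plus): agatctgatGCCCTCTGCTGGattgctcag
Myc, 1616.38 kb downstream (chr15:63433309-63433338, minus): ggactgtctGTCCCCTGGTGTcctctagat
Myc, 1667.34 kb downstream (chr15:63484271-63484300, plus): tgcaagagcGCCCCCTGCTGCcagtatttg
Gsdmc intron, 1795.59 kb downstream (chr15:63612522-63612551, minus): gcttttcgcGCTCCCTAGTGCtcaaaatgt
Gsdmc4 intron, 1910.78 kb downstream (chr15:63727715-63727744, minus): gctctgaccGCCCCCTAGTGCtcagaatgt
Mycn intron, 2.76 kb downstream (chr12:12945942-12945971, plus): agacacaacGCCGCCTGCTGGccacgcacc
Gsdmc2 intron (chr15:63660296-63660325, printed on the plus strand): tacggcagcGCCCTCTTCTGGcctcctcgg
Gsdmc3 intron (chr15:63693705-63693734, plus): tacagcagcGCCCTCTTCTGGcctcctcgg

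At most 2 mismatches to the consensus were found in 9 of 20 pre-B CTCF peaks of the Myc window (45.0%, interval 23.1 to 68.5) against 48.3% of all pre-B CTCF peaks. In IL7 pro-B cells 14 of 34 peaks held it (41.2%, interval 24.6 to 59.3) against 39.0% of that list. Sequence of the same length 2000 bp to each side matched in 9.03% of cases for the pre-B list and in 6.04% for the IL7 list. A match on the plus strand was read as pointing to lower coordinates. Of the 14 distinct matches in the Myc window, 7 pointed toward Myc and 7 away from it. CTCF sites without such a match were given no direction, among them those called in all 5 libraries at 1736.5, 1755.4 and 1786.5 kb. The orientation of the window as a whole was therefore not settled. The match 1.95 kb upstream of Myc pointed toward the gene, and that 10.01 kb upstream away from it. Of the 4 matches beyond 1.6 Mb, that at 1667.34 kb pointed toward Myc and the other 3 away. None of the 14 held a CG dinucleotide within its matched bases, while the match in the Mycn intron did. A CG formed by the first matched base and the base before it was not counted. Such a CG is present at 1667.34 kb and in the Gsdmc and Gsdmc4 introns, so CG near the motif is not excluded for the Myc window. That match pointed away from the Mycn start site, and the other match of the Mycn window, in an IL7 CTCF peak 67.76 kb upstream, pointed toward it.

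The Myc promoter was called in all 5 libraries. Peaks at the promoter, taken as 2.5 kb to each side of an annotated start site, were found in all 5 lists for 6.98% of 22350 protein-coding genes, and both Myc and Mycn were among them. Across single lists the share of protein-coding genes with a promoter peak was 35.6% and 48.8% for pre-B and IL7 CTCF and 27.3%, 7.56% and 37.9% for Rad21 in pre-B, DN and DP cells. Around Myc the peaks of the 5 lists together chained into a single merged site (chr15:61814566-61820001), which ran from the upstream flank across the start site into the gene body. No single list covered it without gaps.

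CTCF in pre-B cells had 3 peaks there: 1 centred 2.02 kb upstream at percentile 79.6, 1 centred 0.28 kb downstream of the start site at 39.4, and 1 centred 1.77 kb downstream at 38.2. At least 3 pre-B CTCF peaks at promoters were called for 2.43% of protein-coding genes. In IL7 pro-B cells the upstream site was again the highest of the promoter, at percentile 88.4, with further peaks at 24.7 (0.91 kb upstream), 67.5 (0.19 kb downstream) and 73.7 (1.74 kb downstream). As many as 4 IL7 CTCF peaks at promoters were called for 2.35% of genes. The strongest CTCF peak of the Myc promoter in both B-lineage lists was therefore the upstream site, which holds the consensus shown above.

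Rad21 had a different profile at the same promoter. In pre-B cells the upstream site held a Rad21 peak at percentile 82.6, and a second Rad21 peak of 3798 bp (chr15:61816204-61820001) covered the start site and most of the gene at percentile 97.1. Only 9 peaks of the whole pre-B Rad21 list were wider. DP thymocytes showed the same arrangement, with 90.1 at the upstream site and 96.0 for a peak of 3027 bp over the start site and gene body, a width exceeded by 33 peaks of the DP list. In both lists the peak over the gene thus ranked above the upstream peak, the reverse of the order for CTCF. DP thymocytes had another 2 peaks between these, 1.14 kb upstream at percentile 53.1 and 0.37 kb upstream at 3.20, and at least 4 DP Rad21 peaks at promoters were called for 1.28% of genes.

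DN thymocytes had 3 separate Rad21 peaks at the Myc promoter, at percentiles 23.6 (1.97 kb upstream), 32.7 (0.24 kb downstream) and 39.6 (1.61 kb downstream). All 3 lay in the lower part of the DN list. In this shortest of the lists, 12 protein-coding genes, or 0.0537%, had as many as 3 promoter peaks. A weaker CTCF site 10.2 kb upstream of Myc (chr15:61806343-61807197) was called for CTCF in pre-B (37.3) and IL7 pro-B cells (47.7), and for Rad21 in pre-B (35.6) and DP cells (28.9), and was not called in DN cells. No other site was called in the 200 kb upstream of Myc in any library, and the next peaks beyond that edge lay between 97.2 kb (IL7 CTCF) and 627 kb (DN Rad21) farther away.

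The order of the 3 Rad21 libraries by peak count in the Myc window changed with list length. The window held 20 pre-B, 12 DN and 51 DP Rad21 peaks. Per Mb this was 9.07 against 11.6 over the genome in pre-B cells, 5.44 against 3.68 in DN cells and 23.1 against 13.9 in DP cells. CTCF was sparser than over the genome in both lists, with 9.07 against 16.0 peaks per Mb in pre-B cells (20 peaks) and 15.4 against 26.9 in IL7 pro-B cells (34 peaks). At the deposited list lengths DP Rad21 was thus called most densely, as the map of called peaks across the Myc window shows. With every list cut to its 9701 strongest peaks the order turned, with 12 DN, 9 DP and 8 pre-B Rad21 peaks.

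**Figure D1:**
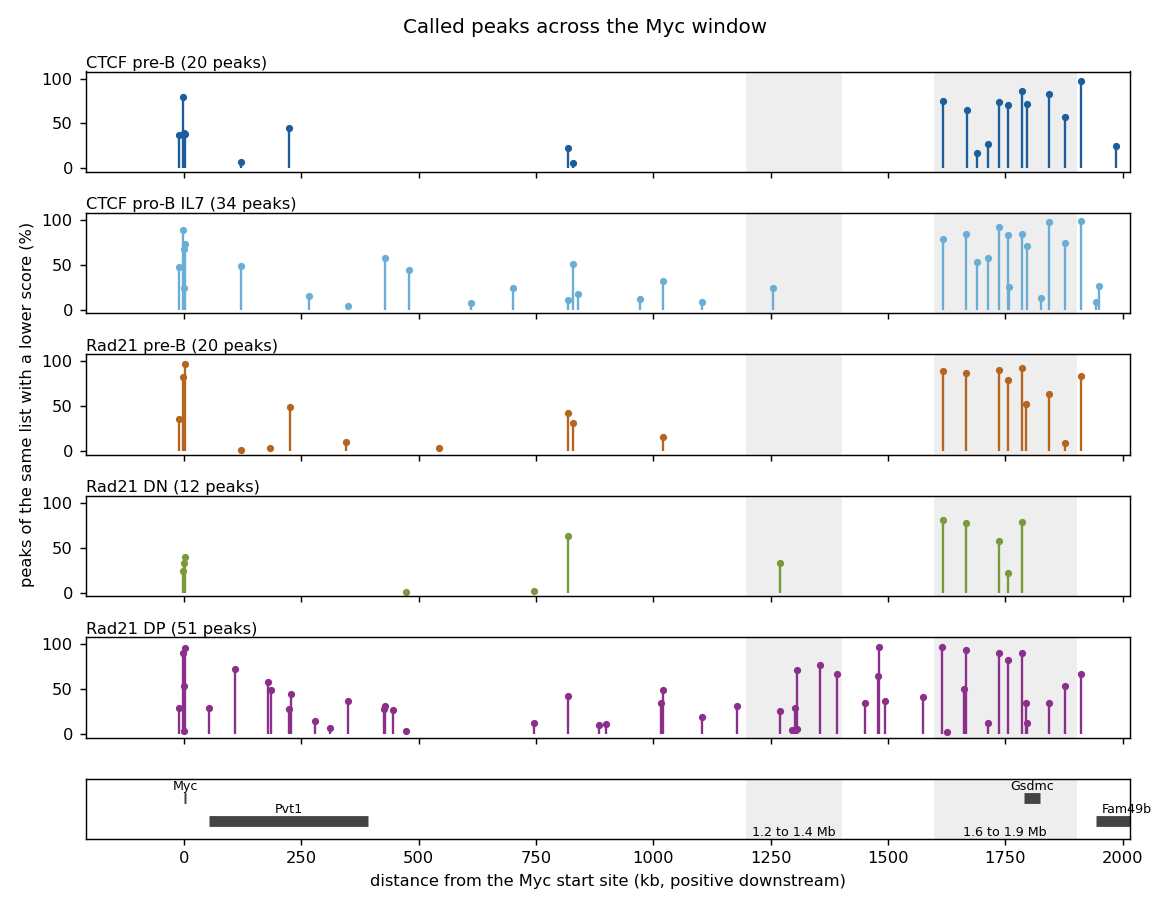
Each line is a called peak, placed by its distance from the Myc start site (kb, positive downstream) and as high as its percentile by score within its own list (%), with 1 panel for each of the 5 libraries and gene bodies below. The shaded windows lie 1.2 to 1.4 Mb and 1.6 to 1.9 Mb downstream. Between 1.2 and 1.6 Mb the DP Rad21 panel holds 12 peaks and the pre-B panels hold none.

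Chaining overlapping peaks of the 5 lists gave 64 sites in the Myc window. Of these, 7 were called in all 5 libraries (10.3% of 83461 sites over the genome were) and 39 in a single library. The sites called everywhere were the promoter, the site at 817.6 kb and 5 sites between 1616.2 and 1786.5 kb, so that none lay in the 800 kb after the promoter. With lists of equal length 1 site of the window was called in all 5 libraries. Of the 64 sites, 45 were intergenic, 17 intronic and 2 overlapped exons. Of the 3 Rad21 libraries, DP alone was called at 29 sites. At 25 of these DP Rad21 was the single call in any library, CTCF included, as it was at 12.3% of all sites in the genome.

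Sites called for Rad21 in DP cells alone were the largest class of Rad21 sites in the window. When the 3 Rad21 lists were merged, 30 of 53 sites were called in DP cells only (56.6%, interval 42.3 to 70.2, genome 33.6%), 8 in all 3 cell types (15.1%, interval 6.75 to 27.6, genome 18.7%), 8 in pre-B and DP cells (15.1%, genome 25.1%) and 4 in pre-B cells only (7.55%, genome 20.6%). Another 3 were shared by DN and DP cells and not called in pre-B cells (5.66%, interval 1.18 to 15.7), a class that makes up 0.940% of Rad21 sites over the genome. With scores of at least 100, and with lists of equal length, no site of the window was left in this class. At the deposited list lengths no site was called in DN cells only (genome 0.310%) or in pre-B and DN cells only (genome 0.831%). With scores of at least 100, 1 of 32 sites was called in DN cells only (3.12%, genome 0.649%). The share of DP-only sites depended on the lengths of the lists. With every list cut to its 9701 strongest peaks, 2 of 14 Rad21 sites were DP only (14.3%, genome 15.6%) and 7 were called in all 3 cell types (50%, genome 33.2%). Another 4 of the 14 were then DN only (28.6%, genome 13%), so the absence of this class also depended on list length.

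**Figure D2:**
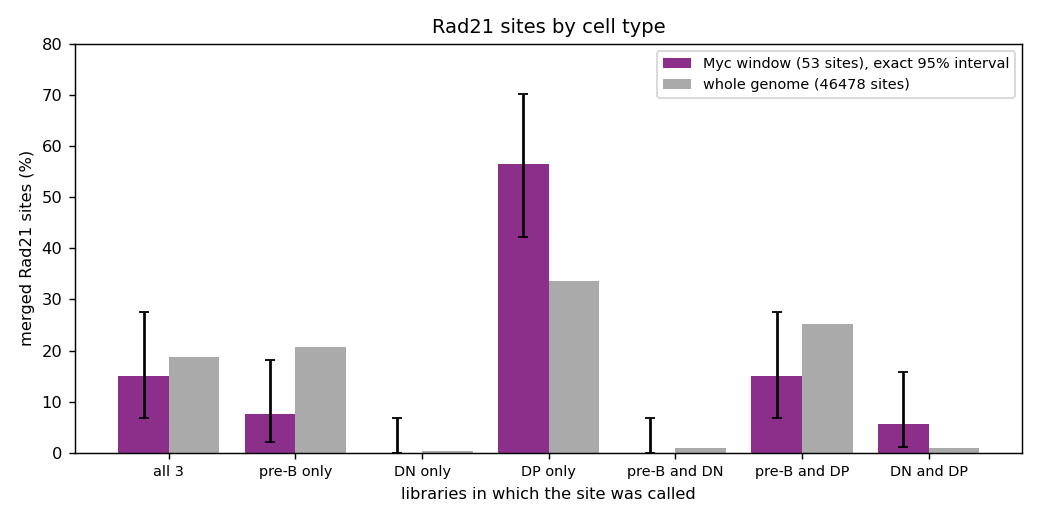
Bars give the percentage of merged Rad21 sites called in each combination of pre-B, DN and DP cells, for the Myc window (purple, with exact 95% intervals) and for the whole genome (grey). DP-only sites make up 56.6% of the Myc window and 33.6% of the genome at the deposited list lengths.

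Rad21 in DP thymocytes was called mostly away from B-lineage CTCF in this window. Of the 51 DP peaks, 30 overlapped no B-lineage CTCF (58.8%, interval 44.2 to 72.4) where 30.8% of all DP peaks did not. In pre-B cells 3 of 20 Rad21 peaks lacked it (15%, interval 3.21 to 37.9, genome 7.62%), and in DN cells 3 of 12 (25.0%, interval 5.49 to 57.2, genome 1.58%). The 30 DP peaks without B-lineage CTCF had a median percentile of 30.2, near the 31.3 of all 11328 such peaks of the list, and the 21 with it a median of 49.0 (genome 60.2). The consensus occurred in 2 of the 30 peaks without B-lineage CTCF (6.67%, genome 9.98%) and in 8 of the 21 with it (38.1%, genome 49.7%). Rad21 peaks at B-lineage CTCF held it in 8 of 17 cases in pre-B cells (47.1%, genome 51.9%) and in 4 of 9 in DN cells (44.4%, genome 58.7%). With scores of at least 100, 14 of 29 DP peaks still overlapped no B-lineage CTCF of the full lists (48.3%, genome 22.1%), as did 1 of 10 DN peaks (10%, genome 1.14%) and 0 of 14 pre-B peaks (genome 2.94%). Among the 9701 strongest DP peaks, 9 fell in the window and 2 of these lacked B-lineage CTCF (22.2%, genome 8.11%).

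CTCF and Rad21 were compared directly in pre-B cells. Of 20 pre-B CTCF peaks, 17 carried pre-B Rad21 (85.0%, interval 62.1 to 96.8, genome 63.5%), and 16 of 20 pre-B Rad21 peaks carried pre-B CTCF (80%, interval 56.3 to 94.3, genome 88.1%). Both genome shares lay inside these intervals. Pre-B CTCF was called again in IL7 pro-B cells for 18 of 20 peaks (90.0%, genome 96.0%), and 18 of 34 IL7 peaks had a pre-B counterpart (52.9%, genome 58.6%). The other 16 IL7 peaks (41.4% of the IL7 list over the genome had none) ranked between percentiles 4.42 and 57.6 with a median of 20.4, below the median of 74.2 of those with a counterpart. The whole IL7 list had nearly the same medians, 23.8 and 70.5. No IL7 peak of the Myc window above percentile 57.6 lacked a pre-B counterpart. The paper reports that CTCF binding in IL7-cultured pro-B cells at Igκ resembles that of pre-B cells. The overlap of these 2 lists is therefore no measure of sharing between the pro-B and pre-B stages.

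**Figure D3:**
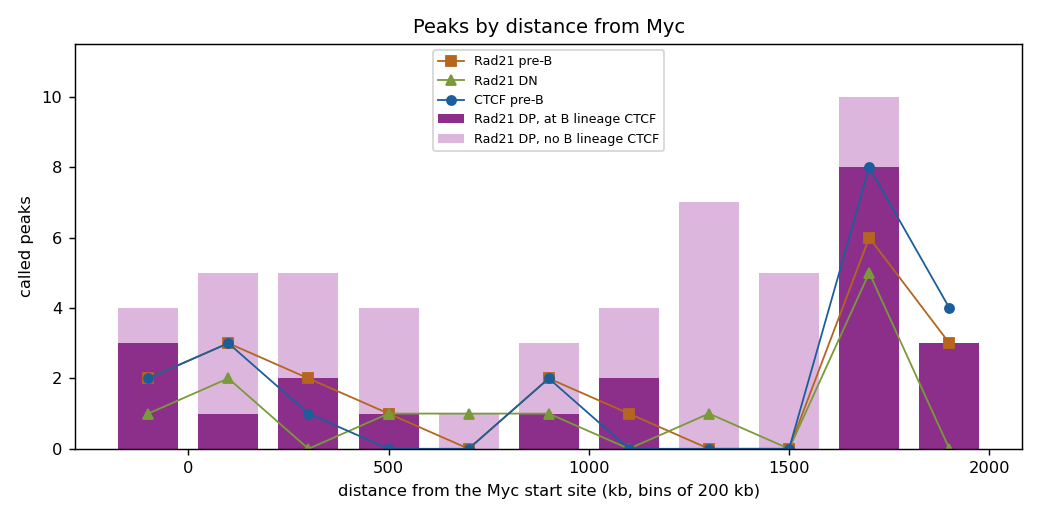
Called peaks (vertical axis, number) are counted in bins of 200 kb of distance from the Myc start site (horizontal axis, kb), with bars for DP Rad21 split by overlap with B-lineage CTCF and lines for pre-B Rad21, DN Rad21 and pre-B CTCF. The bins from 1200 to 1600 kb hold 7 and 5 DP Rad21 peaks, none at B-lineage CTCF, and the bin from 1600 to 1800 kb holds 10, of which 8 are at B-lineage CTCF.

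Pvt1 (chr15:61869542-62209651), transcribed in the same direction as Myc, carried mostly low-ranking sites. Of its 12 sites, 9 were called for Rad21 in DP cells, 4 for Rad21 in pre-B cells and none in DN cells, and 6 were seen in DP Rad21 alone. Per Mb of Pvt1 this was 26.5 DP Rad21 peaks against 13.9 over the genome, 11.8 against 11.6 in pre-B cells and 0 against 3.68 in DN cells, so that pre-B Rad21 was at its genome density. The strongest DP Rad21 peak of Pvt1 lay in an intron 107.7 kb from the Myc start site, at percentile 72.7, without B-lineage CTCF. The next were at 179.6 kb (57.9) and 184.3 kb (49.0 in DP, 3.33 in pre-B cells), also without B-lineage CTCF. A DP Rad21 peak also covered the annotated start of Pvt1, at 52.5 kb (28.4). B-lineage CTCF was called at 4 sites along Pvt1, with 5.88 pre-B and 8.82 IL7 CTCF peaks per Mb against 16.0 and 26.9 over the genome. That at 121.4 kb was found in both CTCF lists (6.74 in pre-B, 48.6 in IL7 pro-B cells) with a pre-B Rad21 peak near the foot of its list (1.44). That at 224.7 kb was found for CTCF in pre-B cells (44.7) with Rad21 in pre-B (49.2) and DP cells (27.6), and was the strongest pre-B site of the gene for both proteins. The sites at 267.2 kb (15.7) and 349.4 kb (4.42, with DP Rad21 at 37.0) were called for CTCF in the IL7 culture only. The remaining sites were called for DP Rad21 at 227.0 kb (44.5), 279.4 kb (14.2) and 310.2 kb (6.95) and for pre-B Rad21 at 345.9 kb (9.81). With lists cut to equal length no peak was left along Pvt1 in any library.

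Between Pvt1 and 1.2 Mb CTCF was sparse, with 2.48 pre-B and 12.4 IL7 peaks per Mb (genome 16.0 and 26.9), as was pre-B Rad21 with 4.95 (genome 11.6). DN and DP Rad21, with 3.72 and 14.9 peaks per Mb, were close to their genome densities of 3.68 and 13.9. A site at 817.6 kb was the only 1 of this stretch called in all 5 libraries, for CTCF at 22.2 (pre-B) and 10.7 (IL7) and for Rad21 at 42.2 (pre-B), 62.8 (DN) and 42.2 (DP). CTCF thus ranked low here in both lists while Rad21 ranked in the middle of its lists. A neighbouring CTCF site at 827.8 kb had its consensus on the opposite strand and was called for CTCF in pre-B (5.64) and IL7 pro-B cells (50.7) and for Rad21 in pre-B cells only (31.6). The remaining DN peaks of this stretch, at 472.9 and 745.4 kb, were shared with DP cells without B-lineage CTCF, and stood at the foot of the DN list (0.0825 and 1.99).

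The window 1.2 to 1.4 Mb downstream, set around the approximate distance known for the Notch-dependent Myc enhancer, held mainly DP Rad21 at the deposited list lengths. Of its 8 sites, 7 were called for Rad21 in DP cells, 1 of them also in DN cells, and none for CTCF or Rad21 in pre-B cells. Its density was 35 DP Rad21 peaks per Mb against 13.9 over the genome, while the single DN peak made 5 per Mb against 3.68. With every list cut to its 9701 strongest peaks, 1 DP and 1 DN Rad21 peak were left in the window. The strongest DP peaks lay at 1355.2 kb (percentile 76.4), 1305.2 kb (71.0) and 1392.0 kb (66.7), followed by 1302.1 kb (28.9), 1306.6 kb (5.46) and 1294.6 kb (4.88). At 1305.2 kb, 21.7% of 36-base words recurred elsewhere in the Myc window. The site shared by DN and DP cells, at 1270.4 kb (chr15:63086962-63087724), had percentile 32.9 in DN and 25.8 in DP cells. Its DN peak scored 122.89 and its DP peak 87.96, so that with scores of at least 100 the site was called in DN cells only. The single CTCF peak of the window, in IL7 pro-B cells at 1255.5 kb (24.1), carried no Rad21.

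From there to 1.6 Mb the DP-only pattern continued without a break, in a stretch described after its values were seen. All 5 sites between 1.4 and 1.6 Mb were called for Rad21 in DP cells alone. They included the strongest DP Rad21 peak of the entire Myc window, at 1481.6 kb (chr15:63298112-63298947, percentile 97.0), with a further peak at 64.3 beside it at 1478.6 kb. Together with the preceding window this made a run of 11 consecutive sites called for DP Rad21 alone, from 1294.4 to 1574.4 kb. Over the genome 6638 runs of such sites were counted, of which 17, this run included, were at least as long and 9 longer. At equal list length the peaks at 1355.2 and 1481.6 kb were those of this stretch that remained.

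To show what such sites without B-lineage CTCF look like, the central 300 bases of the strongest DP peak and of the DP peak at the site shared by DN and DP cells are given on the plus strand of mm9. Capitals mark CAGNTG, the letters bound by E proteins, TGTGGT (RUNX factors), TGGGAA (RBPJ, the DNA-binding partner of Notch) and CTTTGA (TCF1 and LEF1), each searched on both strands, so that ACCACA and TTCCCA are matches on the minus strand. The marked matches do not overlap.
DP Rad21 site at 1481.6 kb (chr15:63298380-63298679, plus): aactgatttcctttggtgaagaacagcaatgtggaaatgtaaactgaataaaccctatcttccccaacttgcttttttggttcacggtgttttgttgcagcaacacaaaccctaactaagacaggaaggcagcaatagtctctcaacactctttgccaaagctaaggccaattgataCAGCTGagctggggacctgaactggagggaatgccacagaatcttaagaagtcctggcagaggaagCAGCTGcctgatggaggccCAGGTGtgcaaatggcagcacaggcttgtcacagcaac
DN and DP Rad21 site at 1270.4 kb (chr15:63087163-63087462, plus): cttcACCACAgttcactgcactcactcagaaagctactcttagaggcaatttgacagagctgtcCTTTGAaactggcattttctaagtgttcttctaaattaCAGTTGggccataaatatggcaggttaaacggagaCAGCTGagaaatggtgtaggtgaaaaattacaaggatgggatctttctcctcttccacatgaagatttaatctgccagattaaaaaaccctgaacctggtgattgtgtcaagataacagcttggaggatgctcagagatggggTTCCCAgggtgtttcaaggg

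The first stretch held 3 matches to CAGNTG and none to the other letters, and the second held 2 matches to CAGNTG and 1 to each of the others. Among the 30 DP peaks of the Myc window without B-lineage CTCF, CAGNTG occurred in 24 of the central 300 bases (80%, interval 61.4 to 92.3). Over the genome 65.1% of all such DP peaks held it, as did 53.8% of stretches of the same length 2000 bp to 1 side of those peaks. TGTGGT occurred in 13 (43.3%, interval 25.5 to 62.6, against 26.9% and 21.9%), CTTTGA in 9 (30.0%, interval 14.7 to 49.4, against 19.7% and 21.2%) and TGGGAA in 6 (20%, interval 7.71 to 38.6, against 21.5% and 26.1%). The share of all such DP peaks lay inside the interval for each motif. The genome-wide share of neighbouring stretches lay outside the interval for CAGNTG and TGTGGT, and inside it for CTTTGA and TGGGAA. Stretches beside the 30 peaks of the Myc window were not counted, so local background was not compared. At the 21 DP peaks with B-lineage CTCF, CAGNTG occurred in 8 (38.1%, interval 18.1 to 61.6, against 61.3% of such peaks over the genome). The RUNX, TCF/LEF and RBPJ letters each occurred in 6 of these 21 (28.6%, interval 11.3 to 52.2), against 22.8%, 16.8% and 26.4% over the genome. These short motifs were chosen after the sites were known.

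The window 1.6 to 1.9 Mb downstream, set around the approximate distance known for the blood enhancer cluster, was dense in B-lineage CTCF. Of its 14 sites, 12 had B-lineage CTCF, 11 had DP Rad21, 8 had pre-B Rad21 and 5 had DN Rad21, and these 5 were called in all 5 libraries (10.3% of sites over the genome). Per Mb the window held 33.3 pre-B and 40 IL7 CTCF peaks (genome 16.0 and 26.9) and 26.7 pre-B, 16.7 DN and 40 DP Rad21 peaks (genome 11.6, 3.68 and 13.9). At 1616.2 kb (chr15:63432639-63433729) the percentiles were 75.1 and 79.1 for pre-B and IL7 CTCF, and 89.3, 81.4 and 96.5 for Rad21 in pre-B, DN and DP cells. At 1667.2 kb (chr15:63483584-63484743) they were 64.9 and 84.5 for CTCF and 86.7, 77.5 and 94.1 for Rad21. The consensus matches of these neighbours, shown above, lie on opposite strands and point toward each other.

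The site at 1786.5 kb (chr15:63603040-63603832) was as high, with CTCF at 85.8 and 84.9 and Rad21 at 92.4, 78.7 and 90.6. At 1736.5 kb CTCF stood at 74.1 and 92.1 and Rad21 at 90.8 in both pre-B and DP cells, and at 57.5 in DN cells. The site at 1755.4 kb had CTCF at 70.9 and 83.8 and Rad21 at 79.3, 21.9 and 82.7 in pre-B, DN and DP cells. Percentiles of the DN list are not comparable with those of the longer lists, since the lists differ in length and each ends at its own lowest score.

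Beyond 1786.5 kb lie the Gsdmc genes, a tandem family of gasdermin C genes of which the 4 named here are transcribed toward Myc. An intron of Gsdmc (1795.4 kb), Gsdmc2 (1843.5 kb), Gsdmc3 (1876.9 kb) and Gsdmc4 (1910.5 kb) each carried a site called for CTCF in both B-lineage lists and for Rad21 in pre-B and DP cells, and none of the 4 was called in DN cells. Over the genome 29.8% of pre-B and 24.9% of DP Rad21 peaks overlapped a DN peak, so that most lacked a DN call. The sites in Gsdmc and Gsdmc3 were singled out after their values were seen. CTCF stood at 72.0, 82.5, 57.6 and 97.0 in pre-B cells and at 71.1, 97.7, 74.7 and 99.3 in IL7 pro-B cells, in the order of the genes above. The Gsdmc4 site was the strongest CTCF peak of the Myc window in both lists. Rad21 stood at 52.2, 63.9, 9.08 and 83.4 in pre-B and at 34.3, 34.3, 53.8 and 66.8 in DP cells. At the 5 sites called in all libraries it stood between 79.3 and 92.4 in pre-B and between 82.7 and 96.5 in DP cells, so that all 4 Gsdmc sites ranked below these 5 in the DP list, and 3 of the 4 did in the pre-B list.

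Repeated sequence limited how separately these introns were measured. The matches in Gsdmc and Gsdmc4 resemble each other, as do those in Gsdmc2 and Gsdmc3. Of the 36-base words of these sites, 55.1%, 47.4%, 29.0% and 33.9% recurred elsewhere in the Myc window. Reads mapping to as many as 3 places were kept by the authors, so that reads from 1 copy can add to the peak of another. The 4 sites are therefore uncertain as separate sites. At the 5 sites called in all libraries, no more than 2.82% of words recurred.

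**Figure D4:**
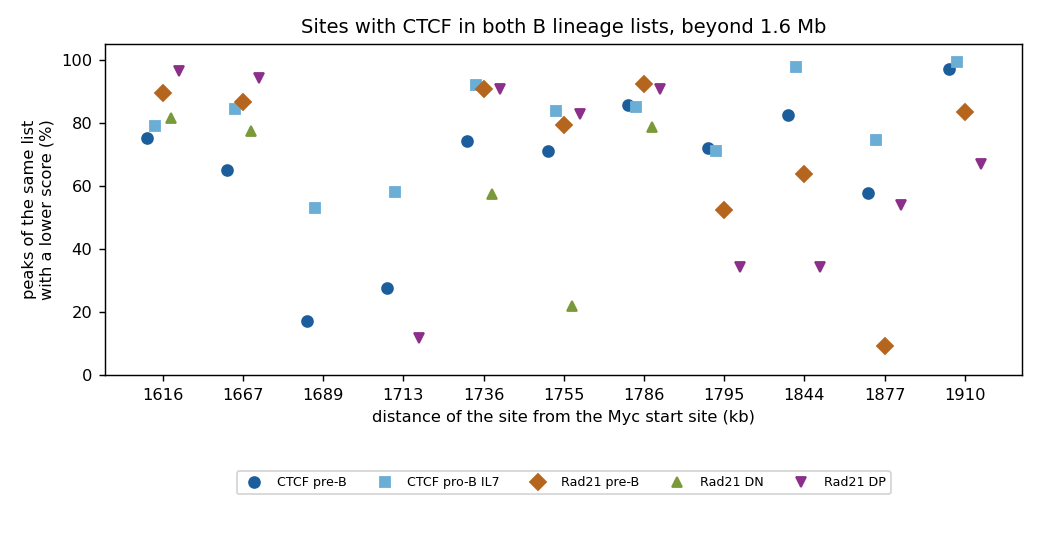
For the 11 sites beyond 1.6 Mb with CTCF in both B-lineage lists (horizontal axis, distance from the Myc start site in kb), points give the percentile of the strongest peak within each list (vertical axis, %), and a missing point means no call. DN Rad21 is present at 5 sites up to 1786.5 kb and missing at the 4 Gsdmc sites, and the sites at 1689.3 and 1712.7 kb are weak or missing in Rad21.

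The remaining sites of this cluster with CTCF in both lists, at 1689.3 kb (17.2 and 52.9) and 1712.7 kb (27.6 and 58.1), had no Rad21 or only a weak DP peak (11.7). Fam49b, which encodes a negative regulator of Rac signalling and whose start lies beyond the window, held CTCF without Rad21 in its body, in IL7 pro-B cells at 1948.8 kb (26.4) and in pre-B cells at 1986.7 kb (25.2). The nearest peaks past the downstream edge lay 6.96 kb (IL7 CTCF) to 125 kb (DN Rad21) away.

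The shorter Mycn window held 2 pre-B and 6 IL7 CTCF peaks and 3 pre-B, 3 DN and 6 DP Rad21 peaks, which chained into 10 sites, 2 of them called in all 5 libraries (genome 10.3%). Per Mb this was 4.93 and 14.8 CTCF peaks (genome 16.0 and 26.9) and 7.39, 7.39 and 14.8 Rad21 peaks (genome 11.6, 3.68 and 13.9). The first lies just upstream of the start site (chr12:12948933-12949852, centred 0.7 kb upstream), with percentiles of 94.2 and 92.8 for pre-B and IL7 CTCF and of 88.6, 81.8 and 87.4 for Rad21 in pre-B, DN and DP cells. It was the strongest site of the Mycn window in every list except the IL7 CTCF list. No match to the consensus with at most 2 mismatches was found in its pre-B CTCF peak. The second lies in an intron 2.8 kb downstream (chr12:12945601-12946297) and holds the match shown above. Its CTCF was as strong, at 88.0 and 94.1, while Rad21 stood near the middle of its lists, at 48.1, 57.3 and 44.5. The Rad21 percentile was thus lower at the intron site than at the upstream site in each of the 3 cell types, while the order for CTCF differed between the lists.

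**Figure D5:**
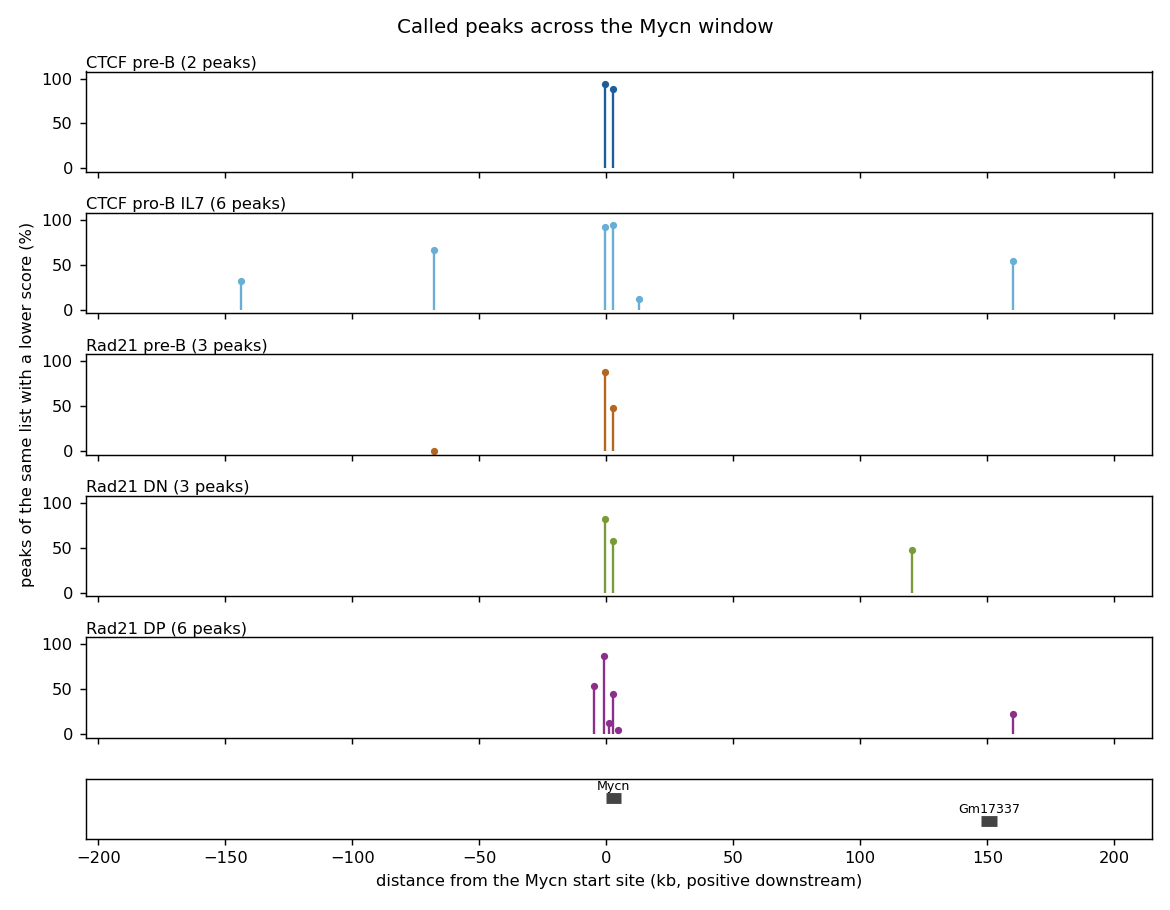
Each line is a called peak, placed by its distance from the Mycn start site (kb, positive downstream) and as high as its percentile by score within its own list (%), with 1 panel for each of the 5 libraries and gene bodies below. The 2 sites at the gene are called in every panel, and most of the 200 kb to either side holds no call.

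The remaining Mycn sites were each called in 1 or 2 libraries. Rad21 in DP cells alone was called at 4.7 kb (4.72) and 1.2 kb (12.4) within the gene and 4.8 kb upstream (54.0), none with B-lineage CTCF. CTCF in the IL7 culture was found 67.7 kb upstream (66.8, with pre-B Rad21 at the lowest score of its list), 143.8 kb upstream (31.8) and 13.1 kb downstream (12.5), and 160.1 kb downstream with DP Rad21 (54.5 and 22.4). A Rad21 peak 120.2 kb downstream was called in DN cells only (47.6), without B-lineage CTCF, a class that makes up 0.310% of merged Rad21 sites. No site outside these 2 was called in more than 2 libraries.

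The partners and antagonists of Myc were also read at their promoters, over a list of 11 genes. CTCF was called at 8 of the 11 in pre-B cells (35.6% of all protein-coding genes) and at 8 in IL7 pro-B cells (48.8%), and Rad21 at 7 in pre-B cells (27.3%), 3 in DN cells (7.56%) and 10 in DP cells (37.9%). With lists of equal length pre-B CTCF, IL7 CTCF and DP Rad21 were each called at 4, pre-B Rad21 at 6 and DN Rad21 at 3. With promoters of 1 kb, DN Rad21 was called at 1. The 3 promoters called in all 5 libraries (6.98%) were those of Mycl1, another Myc family gene, Mxd1, whose product competes with Myc for Max, and Mlxip, a glucose-responsive partner of Mlx. Their top CTCF percentiles in pre-B cells were 96.5, 93.2 and 87.1 and their Rad21 percentiles in DN cells 17.0, 70.5 and 58.0.

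Max itself, the obligate partner, had no peak in 3 of the 5 libraries, with CTCF in IL7 pro-B cells at 10.9 and Rad21 in DP cells at 50.9. Among the Max-binding repressors, Mxi1, Mxd3 and Mnt were called in every library but DN, with top pre-B Rad21 percentiles of 69.9, 74.7 and 72.7. Mxd4 (75.2) was called for DP Rad21 alone, as was Mlx, the Max-like partner (25.7). Mga was called for pre-B CTCF alone (17.7), and was the 1 gene of the list without DP Rad21. Mlxipl, the carbohydrate-responsive partner of Mlx, was called in every library but DN, at 65.6 for pre-B CTCF and 44.0 for pre-B Rad21.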

How the data were processed

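The authors' methods state that duplicate reads and adapters were removed, that reads were aligned to mm9 with Bowtie, keeping those that mapped to up to 3 places, and that confident peaks were called in each library against input with MACS 1.4.2 at a false discovery rate of at most 1% and a p-value limit of 1e-05. The deposited lists give the position and MACS score of each peak, which grows with depth and was used only for ranks within a list. Genes came from GENCODE on NCBIM37, the same assembly as mm9. Peaks overlapping by at least 1 bp were chained into sites. The enhancer windows were set from approximate distances known in general; the elements themselves were not located on mm9. The CTCF consensus was searched on both strands with at most 2 mismatches, and neighbouring sequence 2000 bp away served as background. Named sites were those at promoters, along Pvt1, in the enhancer windows, called in all 5 libraries or strongest in a list; of the 14 sites at 1.6 to 1.9 Mb the 5 with the highest mean percentile. Sites at 10.2 kb upstream of Myc and at 472.9, 745.4 and 827.8 kb, those between 1.4 and 1.6 Mb, the Gsdmc and Gsdmc3 introns, the sites at 1689.3 and 1712.7 kb, those in Fam49b and the other sites of the Mycn window fall outside this rule and were chosen after their values were seen. Members and lists were chosen with earlier results of these data known. Input libraries have no peak list and were not used. The methods were tested on simulated data. Alternatives were scores of at least 100, lists of equal length, peak midpoints, 50% overlap, promoters of 1 and 5 kb, windows 50 kb wider, and 1 or 3 mismatches. Genome-wide shares at the first 2 of these were added after the data were seen. Python 3.11.15, numpy 2.4.6, pandas 2.3.3, scipy 1.17.1 and matplotlib 3.10.9 were used.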

Additional observations from a re-analysis of the deposited data

How the results depend on the processing

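Of 140 values recomputed under the alternatives, 103 moved by less than the limit set for each (1.5 times for a count, the exact interval for a share) and 37 by more. Counting by midpoint, 50% overlap, promoters of 5 kb and wider windows moved none. With scores of at least 100, Rad21 DP peaks fell to 29 at Myc, 3 at Mycn, 5 along Pvt1 and 3 at 1.2 to 1.4 Mb. Along Pvt1, pre-B CTCF, IL7 CTCF and pre-B Rad21 each kept 1 peak, and the IL7 CTCF count at 1.2 to 1.4 Mb was 0. With lists cut to the 9701 peaks of the DN list, the Myc window held 4 pre-B CTCF, 4 IL7 CTCF, 8 pre-B Rad21 and 9 DP Rad21 peaks beside 12 in DN, the Mycn window 2 IL7 CTCF, 1 pre-B Rad21 and 1 DP Rad21 peak, and Pvt1 0 in those 4 libraries. The counts at 1.2 to 1.4 Mb were then 0 for IL7 CTCF and 1 for DP Rad21, beside 1 in DN. Those at 1.6 to 1.9 Mb were 2, 2, 5 and 5 for pre-B CTCF, IL7 CTCF, pre-B Rad21 and DP Rad21. Sites called in all 5 libraries fell to 1 at Myc and 1 at Mycn, Rad21 sites shared by all 3 cell types made up 50% and DP-only sites 14.3%, and pre-B CTCF, IL7 CTCF and DP Rad21 were each called at 4 promoters of the Myc network. With promoters of 1 kb, DN Rad21 was called at 1 of them. With 1 mismatch the consensus was found in 5% of pre-B and 5.88% of IL7 CTCF peaks at Myc, and with 3 mismatches in 100% and 88.2%. The shorter lists hold fewer peaks by construction. Read depth is unknown, so a missing call cannot be told from a shallow library, and with 1 library per condition differences between cell types carry no measure of spread. No paired analysis was possible because each condition has 1 library and no result comes from a test.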
